A study of Mus musculus with 6 samples.

Results

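The phagocyte NADPH oxidase is the enzyme that makes the respiratory burst. Its catalytic core is a membrane heterodimer of gp91phox, encoded by Cybb, and p22phox, encoded by Cyba, which passes electrons from NADPH to oxygen to form superoxide. Cytosolic subunits, among them p47phox (Ncf1) and p40phox (Ncf4), move to the membrane together with the GTPase RAC2 (Rac2) when the cell is stimulated, and the proton channel HV1 (Hvcn1) carries out the compensating charge. The complete complex is best known from neutrophils and macrophages. These 6 genes, taken by name from the 33965 genes of the deposited table, are described here in MC38 tumors, and all 6 passed the filter on low counts that left 19602 genes.

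The tumors came from MC38, an established line of mouse colon carcinoma cells, injected under the skin of female C57BL/6 mice. Bulk RNA-seq covered 3 tumors of the PBS group and 3 of the GB2 group. GB2 is a prodrug in which artesunate, described in the study as a TREM2 inhibitor, is coupled to MSA-2, an agonist of STING. Whole tumors were sequenced, with their leukocytes and stroma, so that fewer cells of a type and less RNA per cell cannot be told apart. Nothing in the labels says that the tumors came from separate cages or days, and p-values measure the spread between these tumors only.

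The total estimated counts ran from 64764405 to 83690056 per tumor, with about 4 counts for each read pair, and the larger libraries were those of the GB2 tumors. At this depth, a gene with 3 read pairs stands at between 0.141 and 0.203 CPM (counts scaled to a common library size). PBS tumor 1 stood apart, holding the highest value of all 5 erythroid markers and of 10 of the 20 tested oxidant enzymes and scavengers. The epithelial markers Epcam, Krt8, Krt18, Cdh1 and Cldn4 were low in every tumor, summing to between 2.60 and 6.34 CPM in PBS tumors and between 3.41 and 7.85 CPM in GB2 tumors.

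The 6 genes separated into 2 kinds. Cybb, Ncf1, Ncf4 and Rac2 were scarce and between 2.95 and 4.92 times higher in GB2 tumors, with no overlap between the groups. Cyba and Hvcn1 were abundant, and their groups overlapped. A call needed an adjusted p below 0.05 with at least a 2-fold difference. By edgeR's quasi-likelihood test, adjusted after Benjamini and Hochberg, 0 of the 6 genes were called, against 0.00% of all genes tested, where 1360 genes had an unadjusted p under 0.05. When the p was left unadjusted, the limits being otherwise kept, 4 of the 6 were higher in GB2 tumors, against 3.74% of all genes. DESeq2 called 3 of them higher (Cybb, Ncf1 and Ncf4), against 1.80% of all genes. The GB2 tumors all lay above the PBS tumors in 4 of the 6, against 8.61% of all genes. The median log2 fold change of the 6 genes was 1.80, beside -0.02 over all genes tested.

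**Figure D1:**
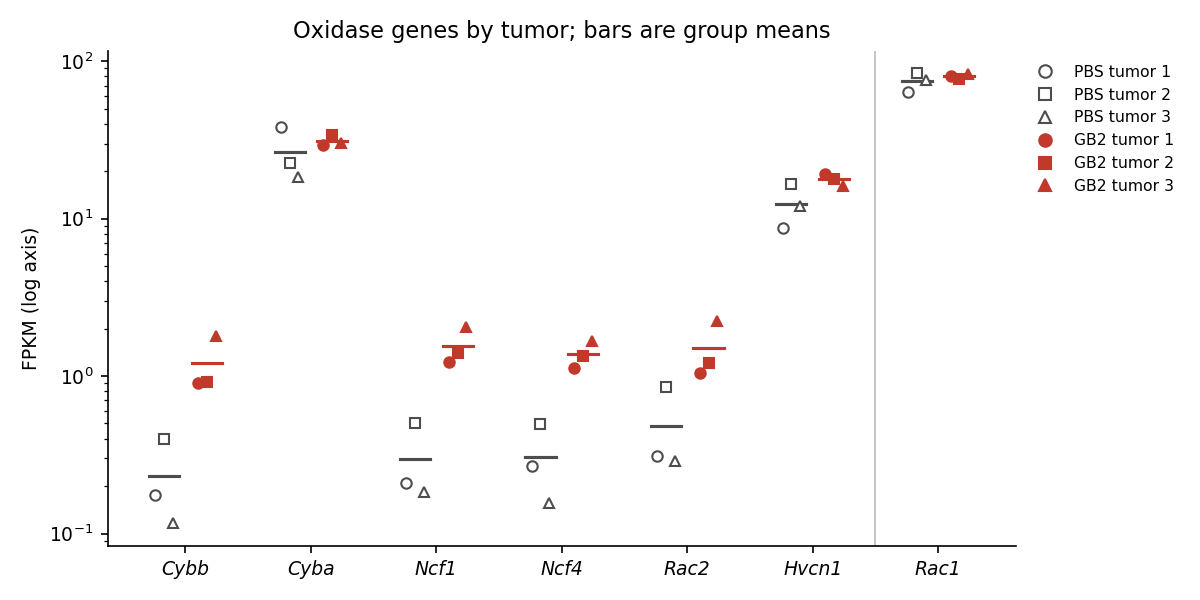
FPKM (log axis) of the 6 oxidase genes and, right of the line, of Rac1 in each tumor, with open gray symbols for PBS, filled red symbols for GB2 and bars for group means. Cybb, Ncf1, Ncf4 and Rac2 lie at or below 2.23 FPKM in every tumor, while Cyba and Hvcn1 lie at or above 8.69 FPKM.

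The catalytic subunit was scarce in PBS tumors and higher in every GB2 tumor. Cybb (ENSMUSG00000015340, chromosome X from 9301491 to 9354010 on the minus strand, on the positions of the deposited table) had estimated counts of 71, 171 and 51 in PBS tumors 1, 2 and 3 and of 441, 466 and 897 in GB2 tumors 1, 2 and 3. Scaled to library size, these were 1.20, 2.43 and 0.721 CPM against 5.25, 5.60 and 10.6 CPM. GB2 tumor 3 was the highest, and even the lowest GB2 tumor was above PBS tumor 2, the highest PBS tumor. The mean was 1.45 ± 0.879 CPM (SD, n = 3) in PBS tumors and 7.14 ± 2.96 CPM (SD, n = 3) in GB2 tumors. The log2 fold change was 2.30 ± 0.52 (SE), which is a 4.92-fold difference with a 95% interval from 2.12 to 11.4. Its adjusted p was 0.272 in edgeR's quasi-likelihood test and 0.00146 in DESeq2. Permuting the 6 tumors exactly (two-sided) gave p = 0.1, the smallest that 3 tumors against 3 allow.

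Cyba encodes the partner that stabilizes gp91phox in the membrane, and its RNA behaved differently from that of Cybb. It lies on chromosome 8 from 123151515 to 123159669 (ENSMUSG00000006519, minus strand). The PBS tumors stood at 46.7, 24.3 and 19.5 CPM and the GB2 tumors at 30.8, 36.9 and 31.6 CPM. The highest and the lowest of the 6 tumors were thus both PBS tumors. The log2 fold change was 0.14 ± 0.32 (SE), a fold of 1.10 with a 95% interval from 0.650 to 1.86 (adjusted p 0.923, edgeR's quasi-likelihood test). The value rested on single tumors. It was 0.61 without PBS tumor 1 (unadjusted p 0.0092, adjusted p 0.324) and -0.09 without PBS tumor 3. The part of PBS tumor 1's other differences in the Cyba value was not tested.

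The RNA of the cytosolic subunits p47phox, the organizer, and p40phox followed that of Cybb. Ncf1 (ENSMUSG00000015950, chromosome 5 from 134248907 to 134258479, minus strand) was at 0.930, 1.94 and 0.707 CPM in PBS tumors 1 to 3 and at 4.59, 5.37 and 7.62 CPM in the GB2 tumors. The order of the tumors was that of Cybb, with PBS tumor 3 lowest and GB2 tumor 3 highest. Its log2 fold change of 2.29 had a standard error of 0.45, a 4.90-fold difference with a 95% interval from 2.35 to 10.2 (adjusted p 0.232 in edgeR's quasi-likelihood test, 1.82e-04 in DESeq2). In the table Ncf1 shares 4303 bases with Gtf2ird2 on the opposite strand. The libraries mark the strand, but whether the counting used it is not given in the sources used here, so reads of the 2 genes may be mixed. Gtf2ird2 had between 1103 and 2193 counts per tumor, against 50 to 648 for Ncf1.

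Ncf4 (ENSMUSG00000071715, chromosome 15 from 78129001 to 78146780, plus strand) had the lowest counts of the 6 genes, at 40, 76 and 24 in PBS tumors 1 to 3 and 194, 238 and 292 in the GB2 tumors. In CPM these were 0.676, 1.08 and 0.340 against 2.31, 2.86 and 3.44. The groups did not overlap. The log2 fold change was 2.04 ± 0.47 (SE), a 4.10-fold difference with a 95% interval from 1.91 to 8.80 (adjusted p 0.276 in edgeR's quasi-likelihood test, 0.00424 in DESeq2).

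Rac2, the blood-cell member of the RAC family, showed the smallest difference among the 4 scarce genes. It is encoded on the same chromosome as Ncf4, from 78443367 to 78456983 (ENSMUSG00000033220, minus strand). The PBS tumors were at 1.13, 2.75 and 0.934 CPM and the GB2 tumors at 3.30, 3.94 and 7.00 CPM. PBS tumor 2 came close to GB2 tumor 1 without reaching it. The log2 fold change was 1.56 ± 0.51 (SE), a 2.95-fold difference with a 95% interval from 1.29 to 6.75 (adjusted p 0.541 in edgeR's quasi-likelihood test, 0.116 in DESeq2). Without GB2 tumor 3 the log2 fold change was 1.17 with an unadjusted p of 0.0697, and 3 in place of 4 of the genes then met the limits on unadjusted p and fold change.

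Hvcn1 (ENSMUSG00000064267, chromosome 5 from 122344867 to 122380360, plus strand) had the highest counts of the 6 genes in every tumor but PBS tumor 1, where Cyba was higher. The PBS tumors were at 36.2, 61.5 and 44.2 CPM and the GB2 tumors at 69.2, 67.0 and 57.5 CPM. GB2 tumor 3, the highest for the 4 scarce genes, was here the lowest GB2 tumor and lay below PBS tumor 2. The other PBS tumors were below every GB2 tumor. The log2 fold change was 0.45 ± 0.22 (SE), a fold of 1.37 with a 95% interval from 0.950 to 1.96 (adjusted p 0.757, edgeR's quasi-likelihood test). When PBS tumor 2 was left out it was 0.69 (unadjusted p 0.015, adjusted p 0.539). Hvcn1 shares 4450 bases with Tctn1 on the opposite strand, which had between 1020 and 2497 counts per tumor.

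**Figure D2:**
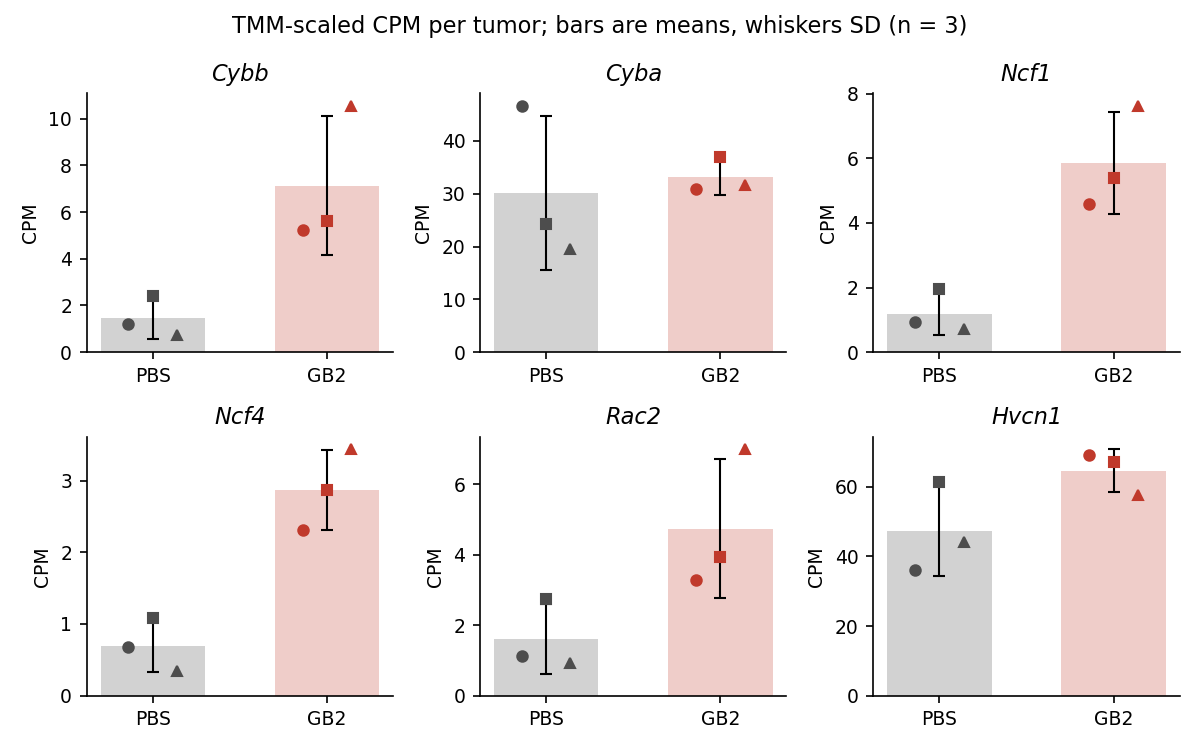
CPM of each oxidase gene per tumor, with bars for group means and whiskers for the SD (n = 3), and circles, squares and triangles for tumors 1, 2 and 3. The GB2 values of Cybb, Ncf1, Ncf4 and Rac2 all lie above the PBS values, whereas those of Cyba and Hvcn1 overlap with them.

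Since the table also gives FPKM, which is divided by transcript length, the levels of the genes could be compared with each other. In PBS tumors Cybb was at 0.231 ± 0.150 FPKM, Ncf1 at 0.298 ± 0.177, Ncf4 at 0.307 ± 0.173, Rac2 at 0.482 ± 0.319, Hvcn1 at 12.4 ± 3.97 and Cyba at 26.4 ± 10.7 FPKM (SD, n = 3). The ranges of the first 4 over the tumors overlapped with each other, and none of them overlapped with Hvcn1 or Cyba. In GB2 tumors Cybb was at 1.21 ± 0.516 FPKM, Ncf4 at 1.38 ± 0.279, Rac2 at 1.5 ± 0.641, Ncf1 at 1.56 ± 0.438, Hvcn1 at 17.8 ± 1.65 and Cyba at 31.2 ± 2.38 FPKM (SD, n = 3). Again the ranges of the 4 scarce genes overlapped with each other. Within each of the 6 tumors, however, Cybb was below both Ncf1 and Rac2.

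The p22phox to gp91phox ratio of RNA was far from even. Cyba exceeded Cybb in FPKM by 217, 56.0 and 157 times in PBS tumors 1, 2 and 3, and by 32.9, 36.9 and 16.7 times in GB2 tumors 1, 2 and 3. The GB2 ratios all lay below the PBS ratios. Cybb, Ncf1, Ncf4 and Rac2 together made up 2.00%, 5.44% and 2.39% of the summed FPKM of the 6 genes in PBS tumors 1, 2 and 3, against 8.11%, 8.58% and 14.4% in GB2 tumors 1, 2 and 3. Among the scarce genes, Cybb stood at 0.845, 0.799 and 0.637 times the FPKM of Ncf1 over the PBS tumors and at 0.728, 0.660 and 0.875 times in the GB2 tumors, and these ranges overlap. Against Rac2, Cybb stood at 0.573, 0.472 and 0.406 times its FPKM in PBS tumors 1, 2 and 3 and at 0.854, 0.759 and 0.807 times in GB2 tumors 1, 2 and 3. Here the GB2 ratios were all higher than the PBS ratios.

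RefSeq promoter windows, 250 bases before to 50 bases after the start on GRCm38.p6, were found for Cybb, Ncf1 and Cyba, which is 3 of the 6 genes. These were the only windows found, and the 3 genes encode both chains of the membrane core and the organizer subunit. The letters searched on both strands were GAGGAA (a core bound by the myeloid factor PU.1), the longer GAGGAAGT that contains it, GAAANNGAA (part of an interferon-stimulated response element), TTCNNNGAA (a STAT element) and GGGACTTTC (an NF-kappa B element). Capitals mark every match. The windows lie at chrX:9469275-9469574, chr5:134229576-134229875 and chr8:122432891-122433190, all on the minus strand and printed 5′ to 3′.
Cybb: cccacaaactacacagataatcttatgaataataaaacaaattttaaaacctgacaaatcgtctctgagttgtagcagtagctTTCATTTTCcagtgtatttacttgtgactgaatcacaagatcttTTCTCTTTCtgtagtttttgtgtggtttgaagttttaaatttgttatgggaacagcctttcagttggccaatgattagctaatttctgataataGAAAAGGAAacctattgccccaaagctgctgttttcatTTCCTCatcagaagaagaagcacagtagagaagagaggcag
Ncf1: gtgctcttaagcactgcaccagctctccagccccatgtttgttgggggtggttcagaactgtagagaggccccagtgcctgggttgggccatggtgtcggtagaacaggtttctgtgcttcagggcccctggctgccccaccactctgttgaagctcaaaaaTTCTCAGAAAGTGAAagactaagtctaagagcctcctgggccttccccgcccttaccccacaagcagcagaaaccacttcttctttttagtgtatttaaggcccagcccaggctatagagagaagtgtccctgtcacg
Cyba: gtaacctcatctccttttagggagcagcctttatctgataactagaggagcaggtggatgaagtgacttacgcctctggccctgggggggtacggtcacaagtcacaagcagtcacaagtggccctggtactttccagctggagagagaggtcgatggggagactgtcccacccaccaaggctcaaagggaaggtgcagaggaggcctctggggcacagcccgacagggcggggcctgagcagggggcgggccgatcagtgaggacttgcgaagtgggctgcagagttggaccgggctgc

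GAAANNGAA was found in the windows of Cybb, with 3 matches, and Ncf1, with 1 match, and is held by 8.56% of the 32851 windows of this length. In the Cybb window the matches begin at -167, -123 and -29, with the start site as 0, and in the Ncf1 window at -82. The Ncf1 match overlaps one of TTCNNNGAA, which 8.30% of all windows hold. GAGGAA had 1 match, in the Cybb window, and is in 28.3% of all windows. GAGGAAGT (3.20% of all windows) and GGGACTTTC (0.353%) had no match in the windows shown, and the Cyba window held none of the letters. A match describes the sequence and is not evidence of binding.

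The other partners of the complex were compared next. Of 12 listed NOX family genes and partners, 7 were tested, and their median log2 fold change was 0.03. Of these 7, 0 met the limits on unadjusted p and fold change, and DESeq2 called 0. Without PBS tumor 1, 2 of them met the limits in favor of GB2 tumors and 1 in favor of PBS tumors. In that fit Duox1 had counts of 0 and 0 in PBS tumors 2 and 3, and Duoxa1 of 4 and 0. The count of 2 may therefore rest on genes near the floor. Rac1, the ubiquitous relative of Rac2 that can serve the oxidase in macrophages, was at 74.5 ± 10.4 FPKM (SD, n = 3) in PBS and 80.1 ± 2.60 FPKM (SD, n = 3) in GB2 tumors, with a log2 fold change of 0.03 and a 95% interval from -0.34 to 0.40. Cybc1, the chaperone of the gp91phox and p22phox dimer, had a log2 fold change of -0.22 (adjusted p 0.788 in edgeR's quasi-likelihood test).

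Among the non-phagocyte members of the family, Nox4 was at 0.277 ± 0.0747 FPKM in PBS and 0.396 ± 0.122 FPKM in GB2 tumors (SD, n = 3). Duox2 and Duoxa2 had 0 counts in every tumor. Rac3 had the lowest log2 fold change of the list, at -0.79 with a standard error of 0.32 (unadjusted p 0.0426 and adjusted p 0.700, edgeR's quasi-likelihood test), and Duox1 the highest, at 1.83 with a standard error of 1.49, from fewer than 1 CPM in every tumor. Its counts were 38, 0 and 0 in PBS tumors 1, 2 and 3, so that this value rests on PBS tumor 1, and no fold is given without that tumor.

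**Figure D3:**
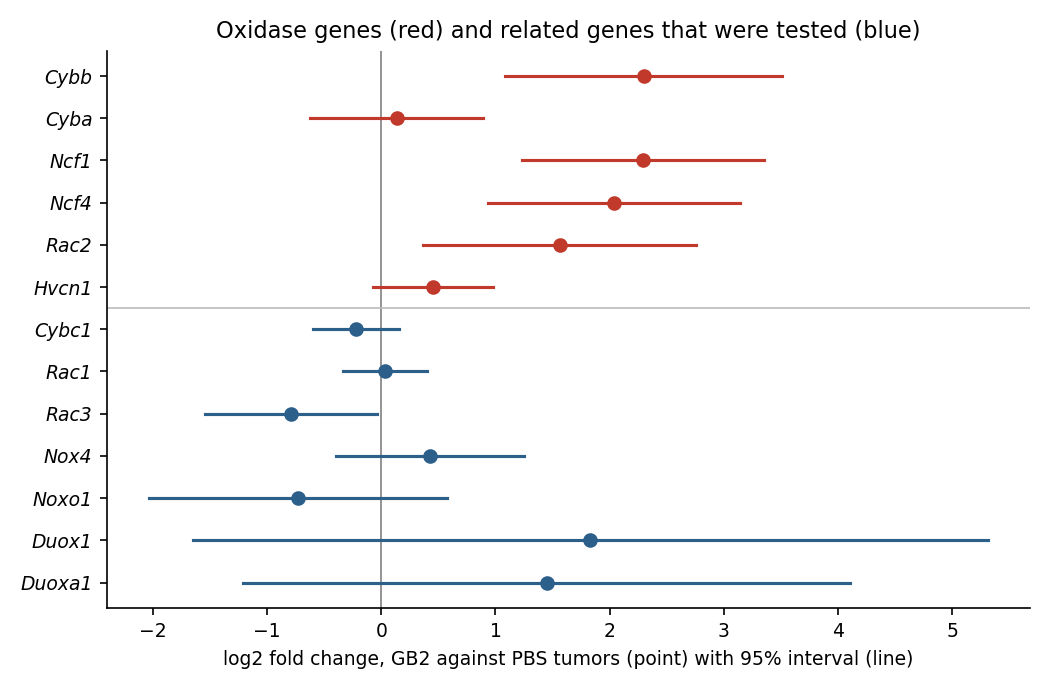
Log2 fold change of GB2 against PBS tumors from the edgeR fit (point) with its 95% interval (line) for the 6 oxidase genes in red and the 7 related genes tested in blue. The intervals of Cybb, Ncf1, Ncf4 and Rac2 lie above 0, while those of Cyba, Hvcn1 and Rac1 include it.

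Receptors that set off the burst were higher in GB2 tumors in most cases. Of 13 tested, 8 met the limits on unadjusted p and fold change in this direction, against 3.74% of all genes. None met them in the other direction, and the median log2 fold change was 1.87. DESeq2 called 5 of the 13, against 1.80% of all genes, and edgeR's adjusted test 0. The Fc gamma receptor gene Fcgr3 was at 2.58 ± 1.30 CPM in PBS and 9.40 ± 2.84 CPM in GB2 tumors (SD, n = 3), with a log2 fold change of 1.87. C5ar1, the receptor for complement C5a, had the smallest p of the list, at a log2 fold change of 1.94 ± 0.39 (SE) (adjusted p 0.234, edgeR's quasi-likelihood test). Fcgr4 had the largest, at 2.53 with a standard error of 0.86. Card9, a signaling adapter downstream of C-type lectin receptors, was level, at -0.01 with a standard error of 0.44.

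Most genes that activate and assemble the oxidase had a log2 fold change above 0 (23, against 2 below it), though of differing size. All 25 listed genes were tested, and the median log2 fold change was 0.78. Of these, 9 met the limits in favor of GB2 tumors, against 3.74% of all genes, and 0 in favor of PBS tumors. Without GB2 tumor 3, 5 met them. DESeq2 called 5 (Fgr, Lyn, Pik3cg, Prex1 and Vav1), against 1.80% of all genes, and edgeR's adjusted test 0. Vav1, a blood-cell exchange factor for RAC proteins, was at 0.866 ± 0.212 CPM in PBS and 3.55 ± 1.70 CPM in GB2 tumors (SD, n = 3), a log2 fold change of 2.03 (adjusted p 0.243 in edgeR's quasi-likelihood test). Pik3cg, the PI3-kinase gamma catalytic subunit, had the largest log2 fold change, 2.90 with a standard error of 0.76, from 0.273 ± 0.244 CPM in PBS tumors. Smaller log2 fold changes were those of the kinase gene Prkcd, whose product can phosphorylate p47phox (0.31), and Nrros, a negative regulator of gp91phox (0.36). Both were named after their values were seen. Arhgdib, which encodes an inhibitor that holds RAC proteins in the cytosol, had the lowest value, -0.34 with a standard error of 0.35.

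Of 8 listed myeloid transcription factors, 7 were tested and 2 met the limits in favor of GB2 tumors, against 3.74% of all genes. With 1 tumor left out the count was 1 (PBS tumor 1, PBS tumor 3, GB2 tumor 2 or GB2 tumor 3), 2 (GB2 tumor 1) or 3 (PBS tumor 2). Spi1, which encodes PU.1, was at 1.605 ± 0.424 CPM in PBS and 4.62 ± 1.58 CPM in GB2 tumors (SD, n = 3), with a log2 fold change of 1.52 and a standard error of 0.38 (adjusted p 0.317 in edgeR's quasi-likelihood test, 0.0131 in DESeq2). Irf8 followed with 1.14, and its groups overlapped. Irf1 had the lowest value, 0.21 with a standard error of 0.59.

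Few genes of NADPH supply and oxidant handling met the limits. Of the 7 genes of NADPH supply, 0 met the limits in either direction, and the log2 fold changes ran from -0.28 for Tkt to 0.27 for G6pdx, the first enzyme of the pentose phosphate pathway. PBS tumor 1 was the highest tumor for 5 of these 7 genes. The median log2 fold change was -0.14, and with 1 tumor left out it ran from -0.26 (PBS tumor 2) to 0.03 (PBS tumor 1). The lowest and highest values of the list were -0.46 and 0.70 when PBS tumor 3 was left out, and 0 genes met the limits in any of these fits. Of 20 tested oxidant enzymes and scavengers, 2 met the limits in favor of GB2 tumors, against 3.74% of all genes. The median log2 fold change was -0.14. With 1 tumor left out it ran from -0.32 (PBS tumor 2) to -0.01 (PBS tumor 1), and was -0.25 for GB2 tumor 3. The count of 2 was 1 when PBS tumor 1 or any of the GB2 tumors was left out, and without PBS tumor 3, 1 gene also met the limits in favor of PBS tumors. With all tumors, these were Gpx3, the secreted glutathione peroxidase, with 1.66 (standard error 0.28, adjusted p 0.190 in edgeR's quasi-likelihood test, 1.96e-05 in DESeq2), and Nos2, the inducible nitric oxide synthase, with 1.54 (adjusted p 0.704 in edgeR's quasi-likelihood test). Txn1 had the lowest value, -0.74 with a standard error of 0.46. Mpo, the myeloperoxidase of neutrophil granules, had 0 counts in every tumor.

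**Figure D4:**
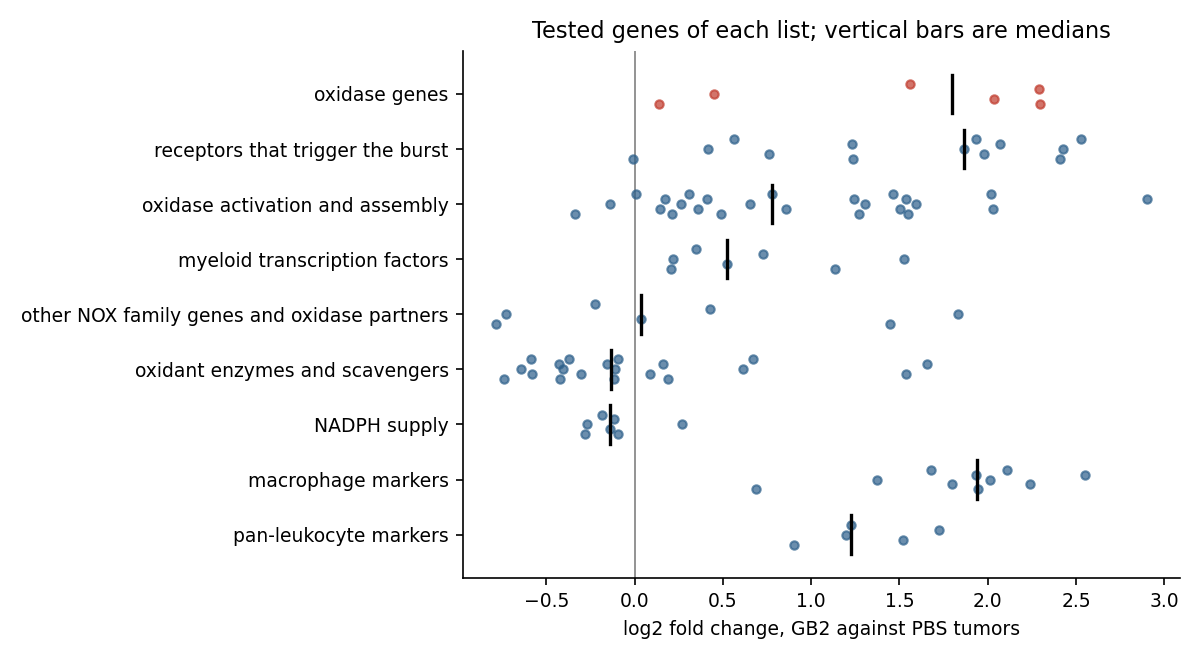
Log2 fold change of GB2 against PBS tumors for each tested gene of the lists, with vertical bars for the list medians. The medians of the oxidase genes (1.80), the burst receptors (1.87) and the macrophage markers (1.94) lie above those of NADPH supply and of oxidant enzymes and scavengers (both -0.14).

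Most tested markers of the cells that carry the oxidase were higher in GB2 tumors, like its scarce genes. Over all genes tested, the GB2 tumors all lay above the PBS tumors in 8.61%. All 10 macrophage markers were higher in each GB2 tumor than in each PBS tumor, and their summed level ran from 67.2 to 93.5 CPM in PBS and from 262 to 358 CPM in GB2 tumors. All 10 were above 0 in every tumor. Among the 11 neutrophil markers, 7 were tested and 5 did not overlap between the groups, with a summed level from 2.49 to 4.50 CPM in PBS and from 9.64 to 12.8 CPM in GB2 tumors. Ly6g, their defining marker, had 0 counts in every tumor. Of the 7 tested neutrophil markers, 6 were higher in GB2 tumors and 1, Ltf, was lower, with a log2 fold change of -0.43. Among those not tested, Camp and Elane had counts in PBS tumors only, and Ngp had counts in every GB2 tumor. The summed level of 6 B cell markers ran from 0.575 to 1.32 CPM in PBS and from 0.512 to 1.30 CPM in GB2 tumors, and that of 7 T cell markers from 1.43 to 7.62 CPM and from 2.75 to 6.88 CPM. Markers of other cells moved too. The groups did not overlap for all 5 fibroblast markers, summing to between 269 and 503 CPM in PBS and between 935 and 1305 CPM in GB2 tumors, nor for all 5 endothelial markers, summing to between 37.2 and 49.3 CPM and between 99.6 and 113 CPM. The 6 mast cell markers summed to between 4.08 and 6.38 CPM in PBS and between 10.6 and 13.9 CPM in GB2 tumors. The 6 dendritic cell markers summed to between 8.37 and 10.9 CPM in PBS and between 14.03 and 16.8 CPM in GB2 tumors. Of the 4 tested, 3 were higher in GB2 tumors and 1, Batf3, was lower, with a log2 fold change of -0.58. Among them, only Itgax, at 1.79, did not overlap between the groups. The 5 skeletal muscle markers summed to between 77.2 and 136 CPM in PBS and between 140 and 183 CPM in GB2 tumors. Of these, 4 did not overlap. All 5 erythroid markers had a lower mean in GB2 tumors, 3 of them within the limits, and summed to between 507 and 7473 CPM in PBS and between 94.6 and 1271 CPM in GB2 tumors. That count was 0 with PBS tumor 1, PBS tumor 2, GB2 tumor 2 or GB2 tumor 3 left out, 4 when PBS tumor 3 was and 5 when GB2 tumor 1 was. The part of the numbers of these cells in the oxidase values was not tested.

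The level of each gene relative to leukocyte RNA was therefore given per tumor, as its log2 CPM minus the mean log2 CPM of the 5 pan-leukocyte markers Ptprc, Cd53, Coro1a, Laptm5 and Lcp1. That mean itself was 2.28 ± 0.56 in PBS and 3.65 ± 0.32 in GB2 tumors (SD, n = 3), a difference of 1.37, which is taken off the difference of every gene. Relative to it, Cybb was at -2.14, -1.45 and -2.08 over the PBS tumors and at -0.98, -1.08 and -0.60 in the GB2 tumors. The groups did not overlap, and the difference was 1.001 on the log2 scale (exact two-sided permutation test, p = 0.1, the smallest possible). Ncf1 differed by 0.99 and Ncf4 by 0.75 with the same p in the exact test. Rac2 differed by 0.26 and its groups overlapped (exact permutation test, p = 0.4). The Rac2 value rested on single tumors, being 0.02 when PBS tumor 1 was left out, 0.49 when PBS tumor 2 was, and 0.12 when GB2 tumor 3 was. Cyba and Hvcn1 were at -1.14 and -0.89, a sign that the subtraction itself sets, since their own log2 fold changes were smaller than that of the markers.

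With the mean of the 10 macrophage markers as reference, the groups overlapped for each of the 4 scarce genes. The differences were 0.51 for Cybb, 0.51 for Ncf1, 0.26 for Ncf4 and -0.23 for Rac2, with p between 0.3 and 0.9 in exact permutation tests. With Ptprc alone as reference, the differences were 1.10 for Cybb, 1.10 for Ncf1 and 0.85 for Ncf4, without overlap, and 0.36 for Rac2, with overlap. Cyba and Hvcn1 were at -1.63 and -1.38 against the macrophage markers and at -1.04 and -0.79 against Ptprc, where their groups overlapped.

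**Figure D5:**
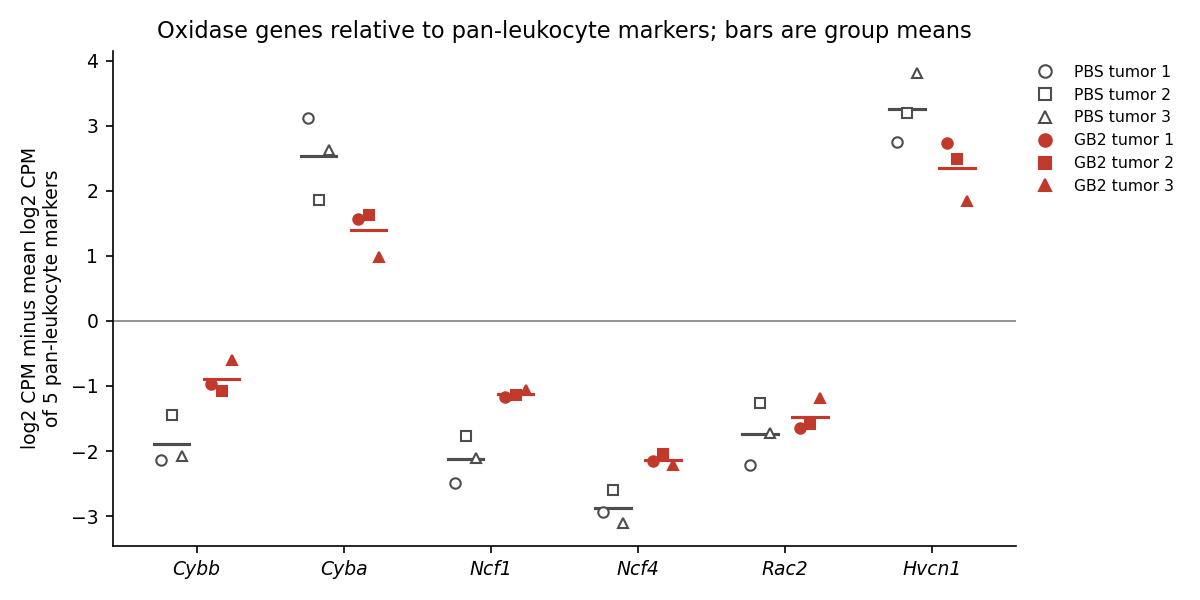
Log2 CPM of each oxidase gene minus the mean log2 CPM of 5 pan-leukocyte markers in each tumor, with open gray symbols for PBS, filled red symbols for GB2 and bars for group means. The GB2 tumors lie higher for Cybb, Ncf1 and Ncf4, overlap with the PBS tumors for Rac2, and lie lower for Cyba and Hvcn1, whose own fold changes were smaller than that of the markers.

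For a mean pattern, the log2 CPM of each of the 6 oxidase genes was centred and scaled to the same SD before averaging. The genes most like this mean over the 6 tumors were sought by Pearson's correlation of log2 CPM. They were Gvin-ps7 (0.998), Laptm5 (0.993), Fcgr3 (0.993), Lcp2 (0.992), Calm4 (0.991) and Itgam (0.991). For Cybb alone they were Fcgr3 (0.997), Gatm (0.996) and Itgam (0.995). The 6 tumors include both groups, so these values hold the difference between the groups as well as the spread within them. Gvin-ps7 is a pseudogene whose reads may come from related genes. Itgam, which encodes the CD11b chain of the complement receptor on myeloid cells, was at 1.86 ± 1.29 CPM in PBS and 10.03 ± 3.56 CPM in GB2 tumors (SD, n = 3), a log2 fold change of 2.43 ± 0.56 (SE) (adjusted p 0.276, edgeR's quasi-likelihood test).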

How the data were processed

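Poly-A selected, strand-marking, paired-end libraries of 6 tumors were analysed. The estimated counts deposited by the authors are whole numbers, not scaled between tumors. Their low values pile up at 4 (7017 values, against 2984 of 3 and 2017 of 5), which puts a read pair at roughly 4 counts. FPKM, also deposited, corrects for transcript length and library total. The submitters' processing notes name cutadapt 1.9, HISAT2 2.2.1, StringTie 2.1.6, DESeq2, edgeR and mm10, but 0 of the 6 genes have the start and end of the GRCm38 annotation, so positions are printed as the table has them. Of its per-sample columns, 0 were left out.

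Genes kept by filterByExpr (minimum count 10) were TMM-scaled, and the GB2 and PBS groups were compared by glmQLFit and glmQLFTest in R 4.3.3 with edgeR 4.0.16. P-values were adjusted over all 19602 genes tested. The limits of the study's methods were used, an FDR of 0.05 and a fold change of 2. Standard errors and 95% intervals come from the test statistic. Log2 CPM used a prior count of 2. DESeq2 1.42.0 ran on the same genes, where 21 had no adjusted p, and limma 3.58.1 on log2(FPKM + 1). Exact permutation tests used scipy 1.17.1. The common dispersion gives a biological coefficient of variation of 40.5%. Scripts were tested on simulated data.

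The labels give no batch. The genes described and all lists were chosen with earlier results of these data known. Named genes are the 6 oxidase genes, the highest, lowest and smallest-p gene of each list, and the genes most like the 6 or Cybb. Any other gene printed was named after its values were seen. One gene of the lists is not reported here and was left out of their counts.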

Additional observations from a re-analysis of the deposited data

How the results depend on the processing

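The counting of calls depended on the test. With DESeq2, 3 of the 6 oxidase genes were called in place of 0, and 12 of the other pathway genes in place of 0. With limma on log2(FPKM + 1), 0 oxidase genes met the limits on unadjusted p and fold change in place of 4, since the added 1 is larger than most FPKM values of the scarce genes and shrinks the folds to between 0.74 and 0.98 on the log2 scale. With log2(FPKM + 0.1), all 4 met them. The number stayed at 4 with RLE or upper-quartile factors, no filter on low counts, a minimum count of 40, counts divided by 4, robust dispersion, and the tumor number as a replicate block, where the log2 fold change of Cybb was 2.37 (adjusted p 0.704). The labels do not say whether same-numbered tumors share more than a number. The deviations of such tumors correlated at 0.03, 0.15 and -0.24 across genes, which cannot decide this. With each tumor left out in turn, it was 3 to 4, and that of other pathway genes 13 to 23, beside 21 with all tumors. The lowest came without GB2 tumor 3. The number of oxidase genes without overlap was 4 to 5, a count that leaving out a tumor can raise but not lower.

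Over the 16 alternatives, the log2 fold change ran from 0.82 to 2.90 for Cybb, 0.98 to 2.84 for Ncf1, 0.87 to 2.50 for Ncf4, 0.74 to 2.2 for Rac2 and 0.30 to 0.69 for Hvcn1. That of Cyba ran from -0.092, without PBS tumor 3, to 0.61, without PBS tumor 1. Differences relative to pan-leukocyte markers fell with macrophage markers as reference, to 0.51 for Cybb, 0.51 for Ncf1, 0.26 for Ncf4 and -0.23 for Rac2. With each tumor left out in turn, these differences ran from 0.86 to 1.22 for Cybb, 0.81 to 1.17 for Ncf1, 0.63 to 0.89 for Ncf4, 0.02 to 0.49 for Rac2, -1.48 to -0.85 for Cyba and -1.15 to -0.62 for Hvcn1. Counts were low for Ncf4, with 24 in PBS tumor 3, about 6 read pairs.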
